A study of Mus musculus with 4 samples.

Results

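Pax7 peaks within 100 kb of the collagen V genes Col5a1, Col5a2 and Col5a3 were taken from a list of Pax7 binding sites in mouse muscle progenitors. A peak was counted when its summit lay between 100 kb before the start and 100 kb after the end of the gene. This gave 7 of the 20579 peaks, with 4 at Col5a1, 2 at Col5a2 and 1 at Col5a3. The genes were chosen by their peaks in this list, with the fold enrichment known, and Col5a1 was picked for the strong peak upstream of it, so the height of that peak and the rank of Col5a1 are a description and no test was made on them.

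The cells were iPax7 progenitors, made from mouse ES cells in which doxycycline (Dox) switches on a single copy of a Pax7 transgene placed next to Hprt. All 4 libraries, 2 of Pax7 ChIP and 2 of input chromatin, came from day 9 of differentiation in serum. The cells had received Dox at 1 µg/ml for 6 days, starting on day 3, and had been sorted as PDGFRα+FLK1- on day 5. Both groups were thus Dox-treated, and Pax7 was supplied by the transgene, so the list describes induced Pax7 in that state alone. The authors merged the libraries of each group before they called peaks. The peak list used here therefore holds no value per replicate, so no spread between replicates is given and no p-value across peaks was computed. The reads of the single libraries were not analysed here. A peak list holds no expression, so the identity of the cells could not be checked on marker genes.

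Collagen V is a minor fibrillar collagen. Its chains assemble with collagen I, where they start fibrils and limit their width, and mutations in COL5A1 and COL5A2 cause classical Ehlers-Danlos syndrome in humans. In adult muscle, collagen V is also a signal in the niche of satellite cells, the muscle stem cells that express Pax7: it is made under Notch control and acts through the calcitonin receptor to keep these cells quiescent. Pax7 itself is a transcription factor with a paired domain and a homeodomain, each of which recognises its own short DNA sequence.

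The genome sequence at the summits (NCBIM37, the mm9 build, plus strand) is shown first because it shows which Pax sequences each peak holds. For the strongest peak, 299 bases around the summit are given, on chromosome 2 as chr2:27665385-27665683. For the others it is the summit and the 50 bases on either side, over which motifs were counted, at chr2:27691427-27691527, chr2:27716580-27716680, chr2:27827626-27827726, chr1:45644655-45644755, chr1:45633425-45633525 and chr9:20706718-20706818 in the order shown. Capitals mark TAAT, the core that homeodomains recognise, and ATTA, which is the same core on the other strand.
Col5a1, 76.4 kb upstream: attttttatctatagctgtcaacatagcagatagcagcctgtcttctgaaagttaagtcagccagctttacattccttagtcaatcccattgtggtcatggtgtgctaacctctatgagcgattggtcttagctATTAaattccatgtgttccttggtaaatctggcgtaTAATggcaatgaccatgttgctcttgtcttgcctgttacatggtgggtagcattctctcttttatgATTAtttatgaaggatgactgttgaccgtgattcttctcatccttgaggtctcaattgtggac
Col5a1, 50.5 kb upstream: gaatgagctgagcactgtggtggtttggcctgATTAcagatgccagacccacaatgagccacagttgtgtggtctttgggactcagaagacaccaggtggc
Col5a1, 25.3 kb upstream: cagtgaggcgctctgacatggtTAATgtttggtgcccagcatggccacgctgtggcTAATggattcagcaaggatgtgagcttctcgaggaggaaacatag
Col5a1, 85.7 kb into the gene: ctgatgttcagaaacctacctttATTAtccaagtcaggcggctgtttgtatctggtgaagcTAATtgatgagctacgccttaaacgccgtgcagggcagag
Col5a2, 84.6 kb upstream: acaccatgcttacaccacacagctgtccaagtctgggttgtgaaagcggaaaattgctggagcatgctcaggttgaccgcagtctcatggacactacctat
Col5a2, 73.3 kb upstream: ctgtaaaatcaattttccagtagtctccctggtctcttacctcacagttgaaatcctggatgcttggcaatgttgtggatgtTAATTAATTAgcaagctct
Col5a3, 87.3 kb upstream: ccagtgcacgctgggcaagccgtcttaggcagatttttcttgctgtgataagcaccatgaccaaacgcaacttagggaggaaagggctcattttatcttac

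None of the 7 Pax7 peaks of the collagen V genes had its summit within 1 kb of an annotated transcription start site (TSS). Of all peaks, 16.3% did, and 7 peaks are too few to set these genes apart from that share. Of the 7, 6 lay upstream of the gene, 1 inside it and 0 downstream. Over the windows of all 22350 protein-coding genes, 41.0% of pairs of a peak and a gene were upstream, 18.6% inside and 40.5% downstream. In these 58288 pairs a peak counted once for each window it fell in. Col5a1 was picked for a peak upstream of it, so the place of that peak was set by the choice. The 7 peaks are also too few to set these genes apart from those shares. The annotation placed the 6 upstream peaks between genes and the remaining one in an intron. The summit closest to a collagen V promoter was 25.3 kb away at Col5a1, 73.3 kb at Col5a2 and 87.3 kb at Col5a3. These distances were not compared with those of the whole list. A peak within 1 kb of a TSS was found for 14.1% of protein-coding genes and for none of these 3, which are too few to differ from that share.

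**Figure D1:**
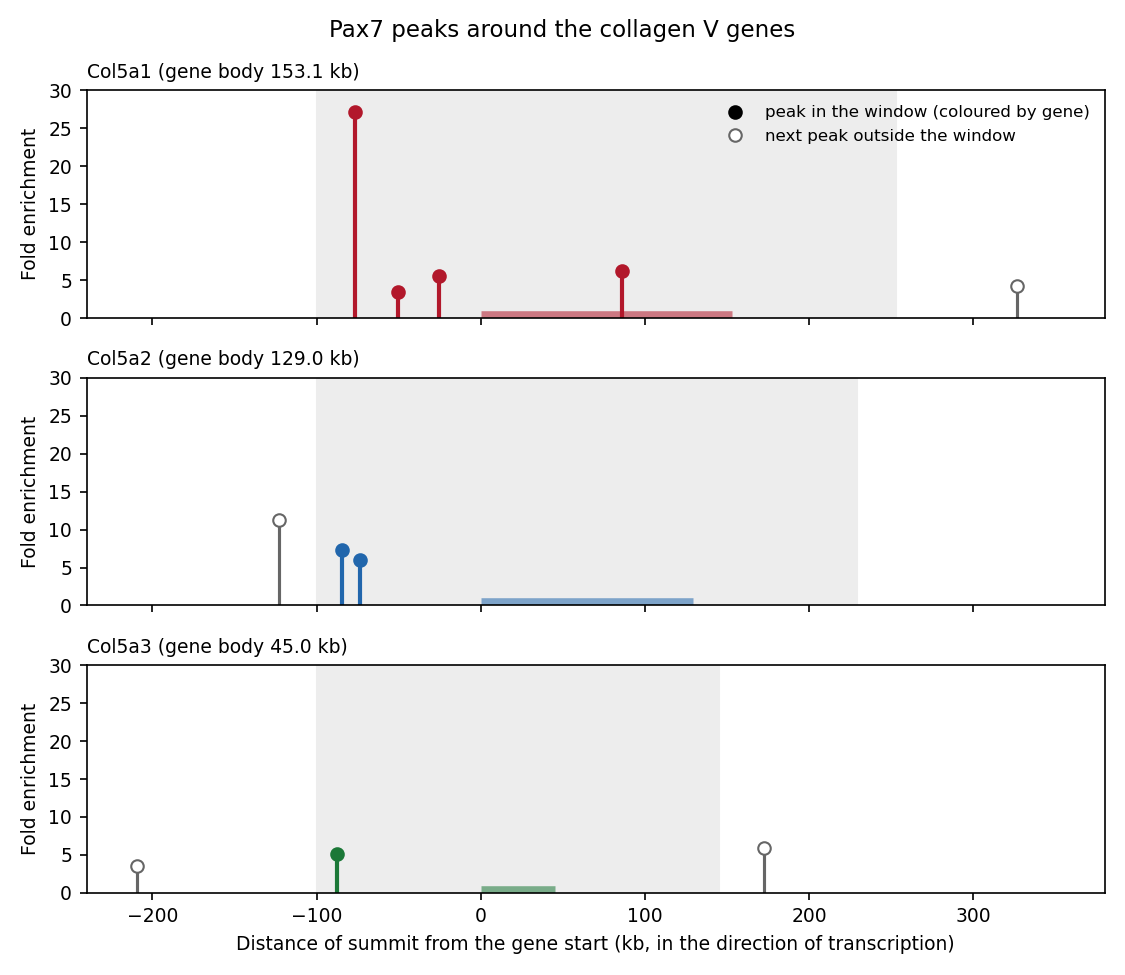
Fold enrichment (linear axis) of Pax7 peaks against the distance of the summit from the gene start in kb, in the direction of transcription, for Col5a1, Col5a2 and Col5a3. Thick bars are gene bodies, grey areas the windows with 100 kb on either side, filled points the 7 peaks counted and open points the nearest peaks outside where they fall within the plotted range. The 27.1-fold peak 76.4 kb upstream of Col5a1 stands above all others, and no peak lies downstream of a gene within its window.

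The height of each peak was read in 2 ways. The fold enrichment is the authors' value, the pooled ChIP signal over the local background at the summit. From it and the −log10 p of the same row, the number of ChIP fragments stacked over the summit and the background behind them could be solved, because both follow from the formula of the peak caller. A single whole number of fragments fitted 20552 of the 20579 peaks to within 0.002 on the −log10 p scale, and 27 peaks had more than 1 solution. All 7 peaks described here were solved. Intervals are exact 95% Poisson intervals of the fragment number with the background held fixed. They cover counting error only, in the pooled libraries, and not the spread between cultures.

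Col5a1 (ENSMUSG00000026837.9) encodes the α1 chain, which is present in nearly all collagen V molecules. It lies on the plus strand of chromosome 2 from 27741945 to 27895034. Its strongest peak ran from 27665334 to 27665799, 76.4 kb upstream of the gene start. It had 170 ChIP fragments (145 to 198) over a background of 5.05, and its fold enrichment was 27.1 (23.2 to 31.5) with a −log10 q of 171. The median of all peaks was 35 fragments and 5.22-fold. The peak ranked 3 of 20579 by fold enrichment and 6 by fragments. Its background came from 29 input fragments within 1 kb, and the genome-wide mean background was 4.50. At 466 bp it was wider than 94.5% of peaks.

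The place of this peak leaves more than 1 gene within reach. The stretch between Rxra, the retinoid X receptor α gene, and Col5a1 holds no other protein-coding gene. The summit was 47.1 kb past the end of Rxra and 133.6 kb from its main start, whereas Col5a1 starts 76.4 kb away. Another annotated transcript of Rxra starts 69.8 kb from the summit, however, nearer than Col5a1. Which gene the site acts on was not tested. The window of Col5a1 holds 1 other protein-coding gene, Fcnb, past its end.

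The other peaks of Col5a1 were of common height. That 25.3 kb upstream (27716517 to 27716721) had 35 fragments (24.4 to 48.7) and was 5.56-fold enriched (3.92 to 7.66). That 50.5 kb upstream (27691336 to 27691545) had 39 fragments (27.7 to 53.3) and a fold enrichment of 3.49 (2.51 to 4.74), over a background of 10.0 set by the input at its summit. This fold exceeded 6.45% of all peaks, while its fragment number exceeded 60.9%. The peak inside the gene (27827539 to 27827834) fell in intron 20 of a transcript with 66 exons, 85.7 kb from the start. It had 46 fragments (33.7 to 61.4) and was 6.21-fold enriched (4.58 to 8.24). The next peak upstream was 549.6 kb from the gene start, in an intron of Vav2 at 5.07-fold. The next downstream was 173.6 kb past the gene end, in an intron of Olfm1 at 4.24-fold. With 200 kb on either side, Col5a1 had 7 peaks, those added lying past its end. These distances were not compared with the spacing of peaks over the whole list.

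Col5a2 (ENSMUSG00000026042.9) encodes the α2 chain and lies on the minus strand of chromosome 1 from 45431166 to 45560127, beside Col3a1, the gene of another fibrillar collagen. Both of its peaks were upstream, on the side away from Col3a1, and Col5a2 was the nearest gene of each. The peak 73.3 kb upstream (45633338 to 45633636) had 62 fragments (47.5 to 79.5) over a background of 9 and was 6.04-fold enriched (4.66 to 7.72). The peak 84.6 kb upstream (45644609 to 45644822) had 41 fragments (29.4 to 55.6) over a background of 4.50 and was 7.32-fold enriched (5.31 to 9.87). By fold the second stood higher, by fragments the first, and the intervals overlapped on both scales. Another peak lay just outside the window at 122.8 kb upstream (45682790 to 45683094). It was the strongest near Col5a2, with 66 fragments, 11.3-fold enrichment and a −log10 q of 43.8, above 95.7% of all peaks. The next coding gene on that side, Wdr75, starts 207.3 kb from the 84.6-kb peak. No peak lay inside Col5a2 or within 100 kb of its end, and Col3a1 had 0 peaks in its own window.

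Col5a3 (ENSMUSG00000004098.7) encodes the α3 chain, which is found in fewer tissues than the other chains. The gene is on the minus strand of chromosome 9 from 20574494 to 20619511, in a gene-rich region. Its single peak (20706696 to 20706879) had 36 fragments (25.2 to 49.8) over a background of 6.00 and was 5.07-fold enriched (3.60 to 6.97), above 47.3% of all peaks. The summit was 87.3 kb upstream of Col5a3 but 3.7 kb upstream of Eif3g, a translation initiation factor gene, and 4.9 kb past the end of Dnmt1, the maintenance DNA methyltransferase gene. Rdh8, A230050P20Rik, Angptl6, Ppan and Eif3g lie between it and Col5a3. Olfm2 lies on the other side of the gene. The nearest peaks outside the window were 209.4 kb upstream of Col5a3, in an intron of Icam1 at 3.57-fold, and 127.3 kb past its end, at the promoters of Fbxl12 and Ubl5 at 5.93-fold.

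**Figure D2:**
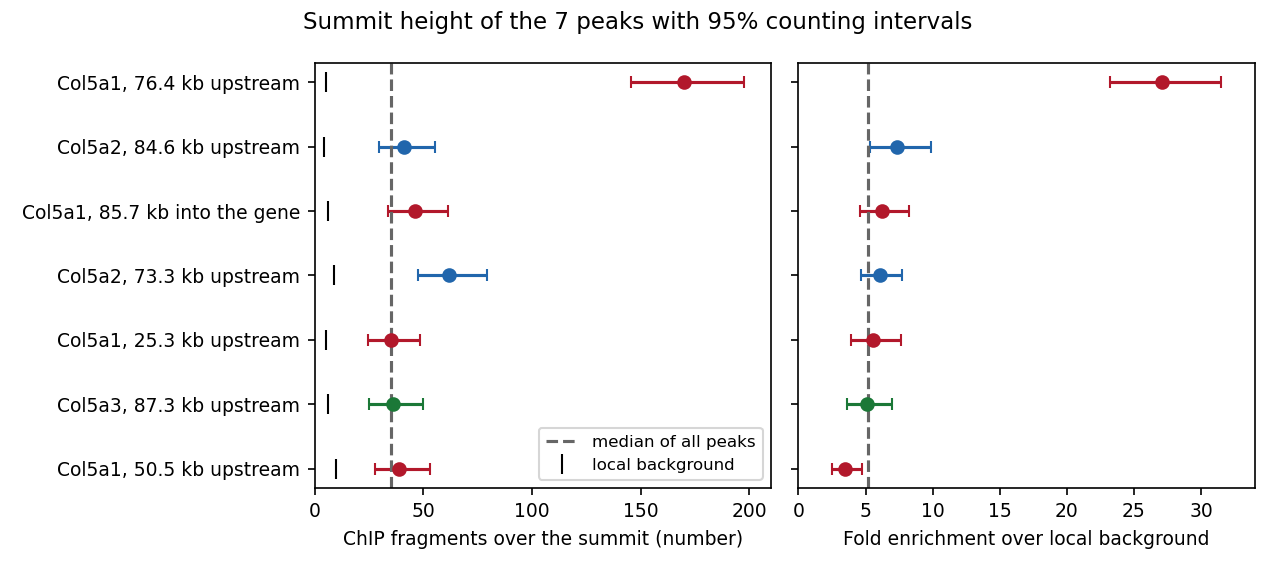
ChIP fragments over the summit (left, number) and fold enrichment over local background (right, linear) for the 7 peaks, ordered by fold enrichment. Points are single pooled values, bars exact 95% Poisson intervals, ticks on the left the local background and dashed lines the median of all peaks (35 fragments, 5.22-fold). The peak 76.4 kb upstream of Col5a1 lies clear of the other 6 on both scales, and the other 6 change their order between the scales.

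Set side by side, 6 of the 7 peaks reached 5-fold, against 54.9% of all peaks, and 1 reached 10-fold, against 6.99%. Their median fold enrichment was 6.04, with 5.22 over the whole list. The interval of the strongest peak was apart from those of the other 6, the highest of which was 7.32-fold, so it stood 3.70 times above the next by fold and 2.74 times by fragments. It held 39.6% of the 429 fragments counted over the 7 summits. This peak was the one for which Col5a1 was picked, so its gap to the others was set by that choice. The shares and the median above include it. Among the other 6 peaks, the fold intervals overlapped in 14 of 15 pairs and the fragment intervals in 15 of 15. The pair that was apart by fold was the peak 50.5 kb upstream of Col5a1 and that 84.6 kb upstream of Col5a2, with 39 and 41 fragments over backgrounds of 10.0 and 4.50. With the genome-wide mean as the background of every peak, the peak 73.3 kb upstream of Col5a2 moved from place 4 to place 2 in the order of the 7, at 10.98-fold.

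**Figure D3:**
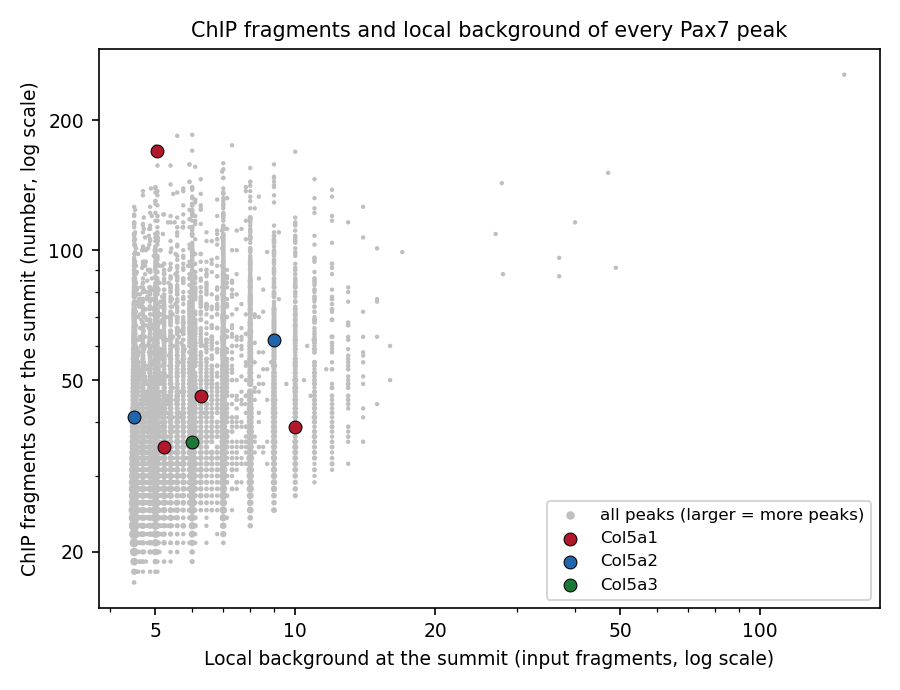
ChIP fragments over the summit against the local background for the Pax7 peaks with 1 solution (grey, both axes logarithmic, larger points for more peaks) and for the peaks of Col5a1, Col5a2 and Col5a3 (coloured). The 170-fragment peak of Col5a1 is near the top of the plot at a background of 5.05, and the other 6 lie within the bulk of peaks at backgrounds from 4.50 to 10.0.

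By number of peaks the collagen V genes lay on both sides of the median gene. At least 1 peak within 100 kb was found for all 3, and for 75.2% of protein-coding genes. Col5a1 with 4 peaks had more than 70.2% of protein-coding genes, Col5a2 with 2 more than 41.1% and Col5a3 with 1 more than 24.8%, where the median gene had 2. Per 100 kb of window, which allows for the length of the genes, the values were 1.13, 0.608 and 0.408, against a median of 0.92. The highest peak of Col5a1 was above that of 99.9% of genes, which is the height for which it had been picked. The corresponding values were 65.3% for Col5a2 and 40.0% for Col5a3.

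Within 50 bp of the summits, 5 of the 7 peaks held a homeodomain core and none a paired-domain core. With only 7 peaks, both counts were near the shares of the list given below. GTCACG, the core bound by the paired domain, was absent within 50 bp of all 7 summits, and 11.1% of all peaks had it (1.31% of windows of the same length 500 bp to one side). Its shorter form GTCAC, which every GTCACG contains, was in 0 of the 7 and in 31.9% of all peaks. ATTA followed within 10 bp by GTCAC was in 0 of 7 and 2.97% of all. The only paired-domain core near these peaks was 69.5 bp from the summit 25.3 kb upstream of Col5a1, on the minus strand and outside that window. These letters alone were searched, and their absence says nothing of sequences that differ from them.

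TAAT was within 50 bp of 5 of the 7 summits and in 64.7% of all peaks, so its share here was near that of the list. It was also in 46.5% of windows of the same length 500 bp to one side. The strongest peak had it 13.5 bp and 22.5 bp from the summit, on opposite sides. The 2 peaks without it were the one 84.6 kb upstream of Col5a2 and the one at Col5a3. The homeodomain dimer site, TAAT and ATTA with 2 bases between them, contains TAAT on both strands and was in 1 of the 7 and in 0.831% of all peaks. It was the run of capitals in the peak 73.3 kb upstream of Col5a2, centred 36.5 bp from the summit. GCACTG, a control with the bases of the paired core in another order and without its CpG, was in 2 of the 7 and in 6.86% of all. A pair of further motifs was added after the values were seen. GTGGGAA, the core of RBPJ, the factor through which Notch acts, was in 0 of the 7 and 2.14% of all, and CAGCTG, an E-box bound by myogenic factors, in 1 of the 7 and 15.7% of all. That E-box was 28.5 bp from the summit 84.6 kb upstream of Col5a2. All motifs were searched on both strands.

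**Figure D4:**
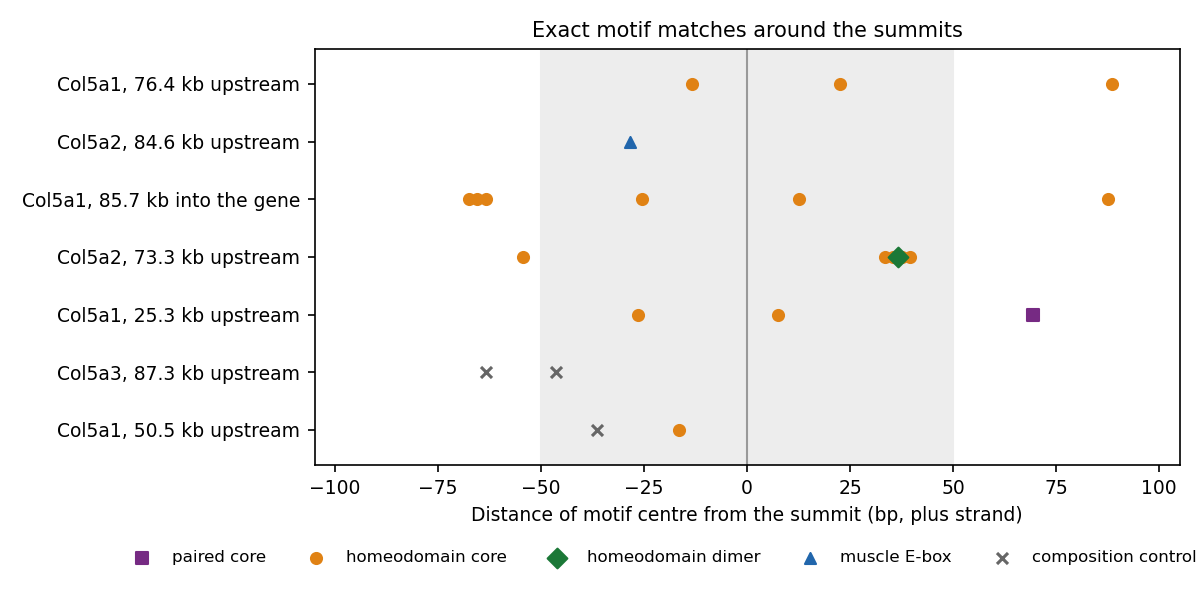
Distance in bp from the summit to the centre of each exact motif match within 100 bp, for the 7 peaks in order of fold enrichment. The grey band is the 50 bp on either side in which motifs were counted. Homeodomain cores lie in this band in 5 peaks and the dimer site in 1, while the single paired core is 69.5 bp from its summit.

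In GC content the summit windows exceeded between 15.0% and 80.1% of all peaks. GC content was 41.6% at the strongest peak, above 23.4% of all peaks, and 39.6% at the peak 73.3 kb upstream of Col5a2. The remaining 5 were between 47.5% and 53.5%, where the median of all peaks was 45.5%. The 7 windows held between 0 and 4 CpG sites each, where the median of all peaks was 2.

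The other fibrillar collagens gave a mixed picture beside collagen V. Of 8 such genes, 7 had a peak within 100 kb (87.5%, against 75.2% of protein-coding genes). With a window of 50 kb, 4 of the 8 had one, against 13882 of 22350 protein-coding genes. A peak of at least 10-fold was found for 2 of them (25.0%, against 15.0%). Col1a2, the α2 chain of collagen I, had 8 peaks, the highest 10.0-fold and 58.8 kb downstream of its start, and 1 of them was at its promoter. Col1a1, the partner chain, had 1 peak of 6.26-fold, 55.3 kb upstream. Col11a2 had 7 peaks, but the highest, 11.5-fold, was at the promoters of H2-Ke2 and Wdr46, 99.1 kb away. Col24a1 had the most, with 10 peaks of at most 7.91-fold. Per 100 kb of window it had 2.18, below the 3.38 of Col1a2 and the 3.08 of Col11a2. Col27a1 had 3 (highest 5.62-fold), Col11a1 2 (5.07-fold), Col2a1 1 (5.07-fold) and Col3a1 0. The highest of Col27a1 was at the promoter of Akna, 190.4 kb from the Col27a1 start. That of Col2a1 was at the promoter of Senp1, 89.0 kb away. Among these genes, Col5a2 and Col5a3, the highest value was thus the 11.5-fold of the Col11a2 window.

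Genes of the collagen V signal in the satellite cell niche were also examined. Of 12 genes, 11 had a peak (91.7%, against 75.2% of protein-coding genes) and 2 had one of at least 10-fold (16.7%, against 15.0%). Calcr, the calcitonin receptor through which collagen V acts, had 1 peak in its window. This peak was in an intron of Calcr, 23.3 kb from its start (chromosome 6, 3691192 to 3691571), with 92 fragments and 14.9-fold enrichment, the highest value in this list. Jag2, a Notch ligand, had 6 peaks, of which the highest, 13.9-fold, was at the promoter of Brf1. Of the Notch receptors, Notch1 and Notch2 had 5 peaks each, with highest values of 9.70- and 8.75-fold and the gene itself as the nearest. Notch3 had 3 peaks, the highest 5.06-fold and nearest to Rrp1b. Rbpj, the nuclear partner of the receptors, had 8 peaks of at most 8.96-fold. Among the other ligands, Jag1 had 2 peaks, the highest 7.32-fold at its promoter, while the highest peaks of Dll1 (5.23-fold) and Dll4 (6.28-fold) were nearest to Fam120b and Vps18. Of the targets of the pathway, Hes1 had 4 peaks of at most 5.48-fold, Heyl had 1 of 4.25-fold with Pabpc4 as the nearest gene, and Hey1 had 0.

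**Figure D5:**
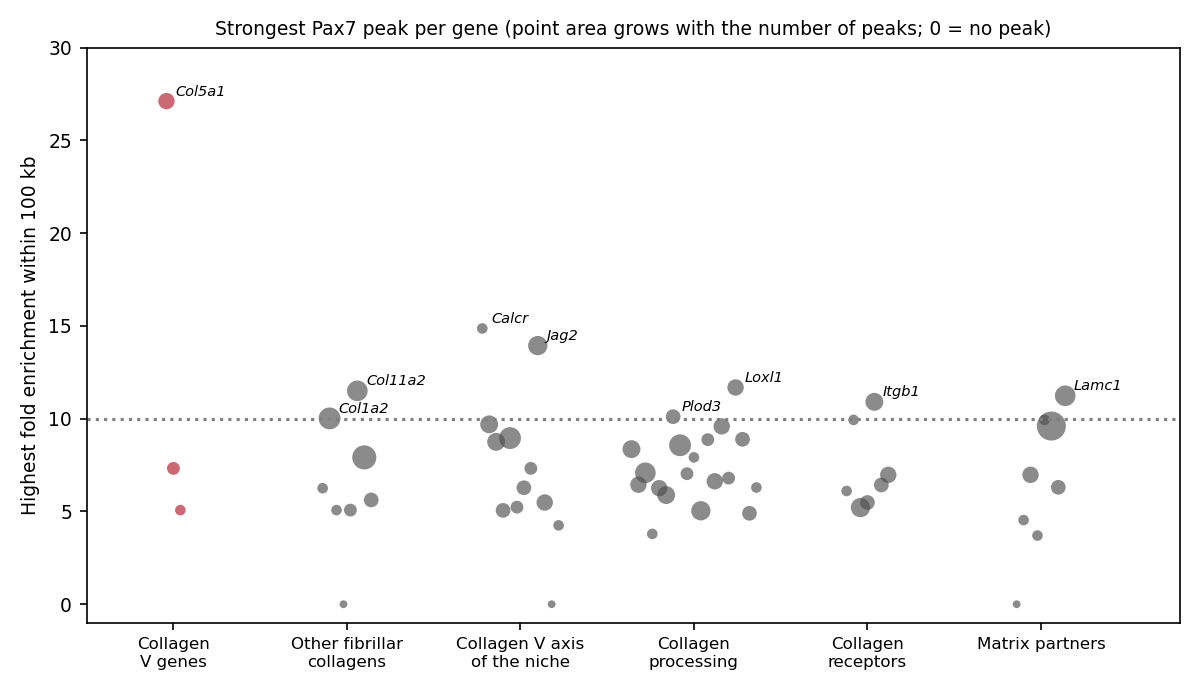
Highest fold enrichment of a Pax7 peak within 100 kb of each gene (linear axis), by gene list, with point area growing with the number of peaks and 0 for genes without a peak. The dotted line is 10-fold. Col5a1 at 27.1-fold lies above all genes of the lists, and Calcr at 14.9-fold is next.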

How the data were processed

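Pax7 ChIP-seq was available as 1 peak list from 2 ChIP and 2 input libraries. Per the study's methods, the authors mapped reads to NCBIM37/mm9 using bowtie2 and discarded reads with several positions as well as PCR duplicates (Picard). Replicates were pooled, and MACS2 called peaks on pooled ChIP over pooled input with q limited to 0.01. In the deposited list, fold enrichment is a ratio that MACS2 gave the authors, and 2 further columns hold −log10 values of p and q. The deposited score, 10 times the −log10 q without its decimals, was not used. Read depth per library is not in the list and was not used.

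Peaks were placed on GENCODE vM1, of the same build, which holds 22350 protein-coding genes on the 20 chromosomes of the list. Coordinates are 1-based. Fragments k and background λ were solved from fold = (0.95873 k + 1)/(λ + 1) and the Poisson tail of MACS2. The step of 0.95873, the scaling of ChIP to input, was fitted to 153 high peaks. The least peak width, 174 bp, was taken as the fragment length. The background was the input at the summit for 43.5% of peaks, the input within 1 kb for 26.4% and the genome-wide mean for 23.7%. On 1921 simulated peaks, 1766 had a single solution, and 1766 of these were right.

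The members, gene lists and thresholds were chosen with earlier results of these data known. Named were the 3 genes, all 7 peaks, the genes near them, the coding genes in their windows, all other fibrillar collagens, list genes with a peak of at least 10-fold, and the 3 genes most like Col5a1. The values of the remaining genes of the niche list and of Lama2 and Dcn were added outside this rule after they were seen. Alternatives were other windows (50 and 200 kb), peak overlap, stricter thresholds, merging within 500 bp, nearest-TSS assignment, motif windows of 25 and 100 bp, and coding TSSs only. Python 3.11.15, numpy 2.4.6, scipy 1.17.1, pandas 2.3.3, pysam 0.24.0 and matplotlib 3.10.9 were used. RNA-seq, pCHi-C and ATAC-seq were not analysed here. Details of 1 further peak of at least 10-fold in the collagen processing list are not reported here.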

Additional observations from a re-analysis of the deposited data

How the results depend on the processing

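The counts depended most on the window. The 7 peaks became 2 with 50 kb and 12 with 200 kb around the genes, the strong Col5a1 peak being lost at 50 kb. Any overlap, a −log10 q of at least 5, a fold enrichment of at least 5, merging within 500 bp and nearest-TSS assignment left between 5 and 7 peaks, although the last gave the strong peak to Rxra and the Col5a3 peak to Eif3g. The share of protein-coding genes with fewer peaks moved for Col5a1 from 70.2% to 60.2% per 100 kb of window, 60.8% at 50 kb and 73.0% at 200 kb. For Col5a2 it moved from 41.1% to 42.5%, 0.0% and 33.0%, and for Col5a3 from 24.8% to 28.4%, 0.0% and 23.9%. The paired core was found in 1 peak within 100 bp. At 50 kb, a peak was left for 1 of the 3 collagen V genes and 4 of the 8 other fibrillar collagens. It was left for 10 of the 12 genes of the collagen V signal and 13882 of 22350 protein-coding genes. Genes with a 10-fold peak went from 2 to 1 at 50 kb for fibrillar collagens, the collagen V signal and collagen processing, and to 4 at 200 kb for the last 2 of these lists, while the share over all protein-coding genes went from 15.0% to 9.43% at 50 kb and 25.2% at 200 kb. The median fold lay between 5.74 and 7.32 under all settings run, but it was taken over the peaks that each setting kept. It was 5.88 over 2 peaks at 50 kb and 5.74 over 12 peaks at 200 kb. The value of 7.32 was that of the 7 peaks with the genome-wide mean as background, which was added after seeing the data. In all, 76 values were recomputed, of which 31 moved. Counts were called moved beyond a set ratio, and the median beyond the counting interval of the middle peak. Percentiles were called moved beyond a narrow interval that takes all protein-coding genes as independent. The total thus mixes unlike rules and is no measure of robustness. No replicate could be left out, and no paired analysis was possible because the list was called on merged libraries and its columns carry no replicate number.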

Other observations

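A Pax7 peak within 100 kb was found for 19 of 19 collagen processing genes, 7 of 7 collagen receptor genes and 7 of 8 matrix partner genes (100.0%, 100.0% and 87.5%), where 75.2% of protein-coding genes had one. The difference was not tested. With a window of 50 kb the counts were 15 of 19, 6 of 7 and 4 of 8, against 13882 of 22350 protein-coding genes. The median number of peaks was 4, 3 and 2 in these lists and 2 over all protein-coding genes. A peak of at least 10-fold was found for 2 of the 19 processing genes (10.5%), 1 of the 7 receptors (14.3%) and 1 of the 8 matrix partners (12.5%), against 15.0% of protein-coding genes. Loxl1, an enzyme that cross-links matrix proteins, had an 11.7-fold peak past its 3′ end, though the nearest gene was Stoml1. Of 7 collagen receptor genes, Itgb1, the integrin β1 chain, had a 10.9-fold peak with 90 fragments in an intron of its own. Of 8 matrix partner genes, Lamc1, the laminin γ1 chain, had an 11.2-fold peak in an intron of its own. Lama2, the laminin α2 chain of the muscle basement membrane, had 15 peaks of at most 9.61-fold. Lama2 is a long gene, and per 100 kb of window it had 1.79, where the median of protein-coding genes was 0.92. Dcn, which encodes decorin, had 0 peaks.

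The protein-coding genes most like Col5a1 in the number of peaks and the height of the highest one, with no peak shared with it, were Nags, Tmem101 and Ankra2, each with 4 peaks. The distances from Col5a1 were 0.044, 0.044 and 0.09 on a plane of log2 highest fold and log2 of the number of peaks plus 1, over 1 pooled list. Nags and Tmem101 lie around the same 27.97-fold peak at the Hdac5 promoter. The highest peak of Ankra2, 25.5-fold with 185 fragments, is intergenic and nearest to Btf3.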
